A study of Mus musculus with 6 samples.

Results

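The proteasome genes of DR4 mouse embryonic fibroblasts were taken as every probe set whose single platform gene symbol starts with Psm, a letter from a to g and a digit, leaving out the immunoproteasome genes Psmb8, Psmb9 and Psmb10. The rule for members reads gene symbols and no measured value, though it was set with earlier results of these data known. It gave 102 probe sets for 46 genes, of 45137 probe sets and 18193 named genes in all. Affymetrix MOE430A arrays held 82 of them for 45 genes, and MOE430B arrays held 20 for 15 genes. A probe set is a group of short oligonucleotides that together measure 1 transcript. The name rule also took in Psmc3ip, a meiotic recombination factor, and Psme3ip1, a partner of an activator subunit. Neither is a proteasome subunit. Both are counted in the numbers over all members, which without them are 80 probe sets on MOE430A, 58 of them in the test.

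DR4 fibroblasts are feeders for stem cell culture, from mice known to carry resistance to several selection drugs. The labels describe fibroblasts from day 15 embryos that served as the control of 3 embryonic stem cell lines, named J1, R1 and V6.5. Total RNA from 3 replicates was hybridized to both array types, giving 6 samples of 1 kind of cell. Cells grew on 0.1% gelatin in D-MEM with 15% heat-inactivated Hyclone FBS and LIF; the medium also held beta-mercaptoethanol, Glutamax, Penicillin/Streptomycin, non-essential amino acids and sodium pyruvate. For replicate 1 the labels record 12x10e6 cells and 2.4 ug/ul of RNA, against 3x10e6 cells and 3.0 ug/ul for replicates 2 and 3. Neither separate cultures nor a treatment to stop cell division is stated, so the p-values speak of these samples alone, whose spread may be technical. The error behind them is the gap between replicates 2 and 3, joined with a variance pooled over all tested probe sets.

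The proteasome is the barrel-shaped protease that degrades proteins tagged with ubiquitin. Its 20S core is a stack of rings of alpha subunits, which form the gate, around rings of beta subunits, which hold the proteolytic sites. The 19S regulatory particle binds the tagged protein, removes the ubiquitin and unfolds the chain with a ring of ATPases. Because nearly every cell needs it, most subunit genes are expressed in all tissues, and a few have variants made in the thymus, the testis or immune cells.

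Values are MAS5 signals, linear intensities that the authors had scaled to 1 target on each array. Signals are given for replicates 1, 2 and 3 in that order, for the gene's brightest MOE430A probe set unless another is named. Probe sets bind with different strength, so signals of different genes do not rank their transcripts. The floor was each array's median signal, 689, 685 and 734 on MOE430A and 849, 917 and 907 on MOE430B, and a probe set counted as above it only if it was on all 3 arrays of its type. As to the label, all 14 fibroblast markers were above the floor, and of the stem cell factors Pou5f1, Nanog and Sox2 none was. Above the floor were 2 of 10 pluripotency markers, 3 of 8 macrophage and blood markers, 1 of 6 endothelial and 2 of 6 epithelial markers. In bulk RNA, fewer cells of a type and less RNA per cell cannot be told apart.

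Almost the whole proteasome was above the floor. Of the 46 genes, 42 (91.3%) had a probe set above it, against 54.7% of all 18193 genes. These were all 7 standard alpha genes, all 7 standard beta genes, all 6 ATPase genes and all 11 other 19S subunit genes, with 3 of 3 activator genes, the inhibitor gene and 6 of 7 assembly chaperone genes, and Psme3ip1, without which 41 were above the floor. The exceptions were the testis variant Psma8, the thymus variant Psmb11, the assembly chaperone gene Psmd10 and Psmc3ip. On MOE430A alone 42 of 45 genes were above it (50.0% of all genes there), and on MOE430B 7 of 15 (50.8%). By probe set, 59 of 82 were above the floor on MOE430A (72.0%, against 42.4% of all) and 8 of 20 on MOE430B (40.0%, against 37.2%), so on MOE430B the share was near that of all probe sets. With several probe sets a gene has more chances to count. With its first probe set alone 38 of 45 genes on MOE430A were above the floor. No share of all genes by that rule is given here, so this count does not show whether an excess remained.

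**Figure D1:**
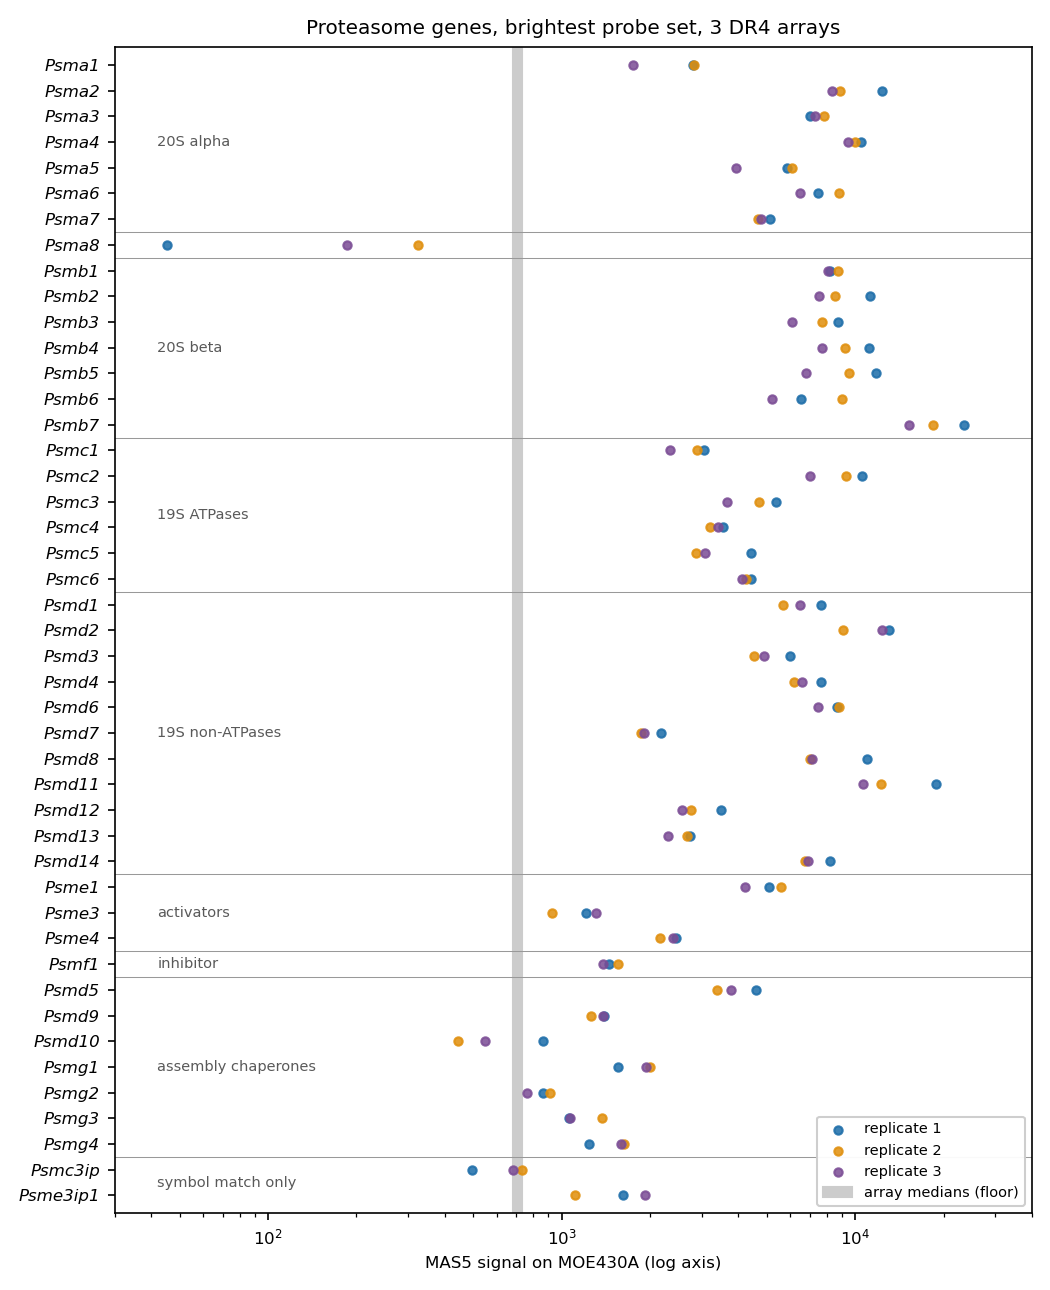
MAS5 signal (log axis) of the 45 genes measured on MOE430A, 1 row a gene with its brightest probe set, grouped by role, with 1 point for each of the 3 replicates and a grey band over the 3 array medians. Psma8 lies left of the band and the 20S and 19S subunit genes lie right of it on every array, and in the 20S beta group the point of replicate 3 is leftmost for each gene.

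The 7 alpha genes build the outer rings and the gate of the core. Psma4 had signals of 10429, 9998 and 9485, and Psma2 had 12371, 8842 and 8362. Psma6 had 7449, 8793 and 6491, and Psma3 had 7022, 7856 and 7320.2. The arrays of Psma3 and Psma4 lay close together, with coefficients of variation of 5.71% and 4.74%, and for Psma2 replicate 1 stood above both others. Psma5 had 5874, 6103 and 3931, and Psma1 had 2797, 2832 and 1749. In both of these replicate 3 was low, and they had the largest SD of log2 signal in the group, 0.35 and 0.39. Psma7 had 5119.8, 4658 and 4786, an even level over the arrays.

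Psma8, which replaces Psma7 in the testis, had signals of 45.5, 324 and 185, under the floor on all 3 arrays. Its highest array was 7.13-fold above the lowest, a range read from values that all lie in the dim part of the array.

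The beta genes include the catalytic subunits. Psmb5 encodes the subunit with chymotrypsin-like activity, which bortezomib blocks, Psmb6 the one with caspase-like and Psmb7 the one with trypsin-like activity. Psmb7 had signals of 23507, 18384 and 15256, a mean of 19049 ± 4166 (SD, n = 3), and Psmb5 had 11768, 9501 and 6794, a mean of 9354 ± 2490 (SD, n = 3). Psmb6 had 6552, 9020.3 and 5225. Replicate 3 was the lowest of the 3 arrays for each catalytic gene, and replicate 1 was the highest for Psmb5 and Psmb7 but not for Psmb6, where replicate 2 was.

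The structural beta genes followed with Psmb4 at 11177, 9252 and 7684 and Psmb2 at 11251, 8549 and 7528. Psmb3 had 8718, 7696 and 6082, and Psmb1 had 8172, 8757 and 8089.8. Replicate 3 was the lowest array for all 10 beta probe sets above the floor, where 33.6% of all tested probe sets had replicate 3 lowest. The group's median coefficient of variation was 21.5%, against 16.5% for all MOE430A probe sets above the floor, and Psmb1 was the most even at 4.36%.

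Psmb11, the catalytic variant of the thymic cortex, is measured on MOE430B alone and had 712, 348 and 682, under the floor. Of the immunoproteasome genes, which replace the catalytic subunits after interferon, Psmb8 had 392, 468 and 61.2 and Psmb9 had 429, 370.2 and 389.6 on MOE430A, all under the floor. Psmb10 had 1011, 1499 and 1487, above it on all 3 arrays. For Psmb10 replicate 1 was the low array, the reverse of Psmb5 and Psmb7, with a log2 difference of -0.56 (limma, adjusted p = 0.787).

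Proteasome genes are known targets of the transcription factors Nfe2l1 and Nfe2l2, which bind the antioxidant response element. Promoter sequence is shown for the 5 genes that were found to hold the core of this element, the catalytic genes Psmb5 and Psmb6 among them. The stretches below are 100 bases long and lie within the 250 bases before the gene's start, from RefSeq on GRCm38.p6, read 5′ to 3′ on the gene's strand. RefSeq promoters were matched for 38 of the 46 genes. The core of the element, TGACNNNGC on either strand, stood in 5 of 38 (13.2%), against 11.5% of 27025 genes, so it was about as frequent as in all promoters. Capitals mark that match.
Psmb5, chr14:54617996-54618095, minus strand: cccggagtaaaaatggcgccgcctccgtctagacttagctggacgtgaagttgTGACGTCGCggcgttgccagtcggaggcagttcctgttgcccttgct
Psmb6, chr11:70525257-70525356, plus strand: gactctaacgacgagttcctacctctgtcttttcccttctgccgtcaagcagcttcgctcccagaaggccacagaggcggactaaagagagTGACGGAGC
Psmc6, chr14:45329574-45329673, plus strand: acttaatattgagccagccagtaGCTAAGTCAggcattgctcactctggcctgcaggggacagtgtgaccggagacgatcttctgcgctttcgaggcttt
Psmd12, chr11:107479278-107479377, plus strand: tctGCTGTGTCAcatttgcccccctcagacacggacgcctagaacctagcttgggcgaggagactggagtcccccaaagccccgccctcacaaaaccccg
Psmd9, chr5:123228090-123228189, plus strand: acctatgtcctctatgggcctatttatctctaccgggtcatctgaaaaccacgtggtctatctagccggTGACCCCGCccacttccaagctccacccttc
A match to these letters is a description and not a bound site. The match in Psmb5 ran from 47 to 39 bases before the start and that in Psmb6 from 9 to 1, while those in Psmc6 and Psmd12 read on the opposite strand and lay farther out, from 227 to 219 and from 247 to 239 bases before it.

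The promoters of Psma1 and Psmc5 are shown because their probe sets, with that of Psmb5, are on both array types. Capitals mark CCAAT, the box of the NF-Y factor, and GGGCGG, the GC box of Sp factors, on either strand.
Psma1, chr7:114276191-114276290, minus strand: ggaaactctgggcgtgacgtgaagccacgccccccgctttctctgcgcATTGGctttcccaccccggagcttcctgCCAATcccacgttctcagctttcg
Psmc5, chr11:106256031-106256130, plus strand: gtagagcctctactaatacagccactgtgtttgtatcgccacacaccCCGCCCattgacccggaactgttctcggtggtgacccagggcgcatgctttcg
In the stretches shown, Psma1 had a CCAAT box in each orientation and Psmc5 had a GC box. The searched promoter of Psma1 also held GGGCGG, outside the stretch shown. Among member genes 15 of 38 held CCAAT (39.5%, against 37.5% of all genes) and 21 of 38 held GGGCGG (55.3%, against 35.4%). The ETS string CCGGAAGT was in 5 of 38 (13.2%, against 3.23%). In all 12 strings were searched, several of them overlapping, and these 4 were chosen after the shares were seen.

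The 6 ATPase genes encode the ring that unfolds the substrate and opens the core. Psmc2 had 10510.0, 9312 and 7017, and Psmc3 had 5359, 4715 and 3668. Psmc6 had 4416, 4259 and 4109, with the lowest coefficient of variation of any member above the floor, 3.60%. Psmc5 had 4414, 2858 and 3079.5, Psmc4 had 3542, 3189 and 3416, and Psmc1 had 3044, 2894 and 2345. Replicate 1 was the brightest array for all 7 ATPase probe sets above the floor on MOE430A, against 33.2% of all tested probe sets.

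A second Psmc4 probe set had 1592, 172 and 549 and was above the floor in replicate 1 only, while the brighter probe set of the gene was nearly even. Its highest array was 9.27-fold above its lowest, and it was too dim for the test.

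The other 19S subunit genes encode the scaffold, the ubiquitin receptors and the lid. Psmd2, a large scaffold protein that binds ubiquitin-like domains, had 12990.5, 9117 and 12292, and Psmd1, the other large scaffold protein, had 7652, 5661 and 6499. Psmd4, the ubiquitin receptor, had 7631, 6180.4 and 6571, and Psmd14, the enzyme that cuts the ubiquitin chain off, had 8196, 6759.7 and 6884. On these probe sets replicate 1 was highest and replicate 2 lowest for all 4, while another Psmd4 probe set was highest in replicate 3.

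The lid subunit Psmd11, known to help join the regulatory particle to the core, had 18869, 12284 and 10601 on its brightest probe set, and Psmd8 had 10949.9, 7026 and 7119.7. In both, replicate 1 stood above the other arrays. Psmd6 had 8642, 8782 and 7489, and Psmd3 had 5982, 4533 and 4887. Psmd12 had 3491, 2764 and 2563, Psmd13 had 2737, 2666 and 2307, and Psmd7, the inactive partner of Psmd14, had 2186, 1869 and 1908. Replicate 1 was brightest in 12 of the 17 probe sets of this group above the floor (70.6%, against 33.2% of all tested).

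Activators and the inhibitor bind the core in place of the regulatory particle or hold it closed. Psme1, a subunit of the interferon-inducible activator, had 5078, 5585 and 4204, and Psme4, the large single-chain activator, had 2461, 2158 and 2386. Psme3, the nuclear activator, had 1208, 925 and 1306, and the inhibitor gene Psmf1 had 1451, 1559 and 1384. These genes showed no common order of the arrays. Replicate 1 was highest in 2 of 6 activator probe sets (33.3%), near the 33.2% of all tested.

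Assembly chaperones pair subunits while the particle is built. Psmd5 had 4604, 3378 and 3771, and Psmd9 had 1398, 1256 and 1385. Psmg1 had 1559.8, 2004 and 1933, Psmg4 had 1235, 1635 and 1593, Psmg3 had 1061, 1367 and 1064, and Psmg2 had 866, 909 and 761. For Psmg1, Psmg3 and Psmg4, chaperones of the alpha ring, replicate 1 was the lowest array, though for Psmg3 replicate 3 was level with it, the reverse of most ATPase and beta genes. Psmd10, also known as the oncoprotein gankyrin, had 864, 443 and 549 and passed its floor in replicate 1 only. Of the genes matched by symbol alone, Psme3ip1 had 1616, 1111 and 1922, and Psmc3ip had 494, 731 and 684 on MOE430A.

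The first comparison was how far the replicates lay apart, since that is the error of a control profile. Proteasome probe sets above the floor had a median SD of 0.22 on the log2(signal + 16) scale on MOE430A, where all probe sets above it had 0.24. On MOE430B it was 0.26, against 0.28. The highest and the lowest array differed by more than 2-fold for 2 of 59 probe sets on MOE430A (3.39%), against 7.57% of all, and for 0 of 8 on MOE430B, against 13.3%. Both of the 2 belonged to Psmd11, at 3352, 1674 and 1758 on 1 probe set and 6322, 7579 and 3758 on another. The coefficient of variation on MOE430A ran from 3.60% for Psmc6 to 41.8% for the first of these.

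The second comparison set replicate 1 against replicates 2 and 3, the difference in cell number and RNA concentration that the labels record. Core and regulatory particle genes were mostly brighter in replicate 1, by little, and none passed the test. The median difference of the 59 tested probe sets on MOE430A was 0.21 on the log2 scale, against -0.01 over all 11066 tested, and 44 of 59 (74.6%) were above 0, against 48.9% of all. By limma, 0 of 59 were called at an adjusted p of 0.05, where 0.705% of all tested probe sets were, and 1 of 59 had an unadjusted p below 0.05, where 8.13% of all did. The 78 calls over all tested probe sets depended on the processing, with 0 after quantile normalization, 0 without a filter and 164 with an eBayes trend. The filter that left 59 of 82 probe sets used the mean over all 3 arrays.

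By role, the median difference was 0.38 for the beta genes, 0.34 for the ATPase genes, 0.26 for the other 19S subunit genes and 0.11 for the alpha genes. It was 0.09 for the activators, -0.06 for the assembly chaperones and -0.26 for the inhibitor gene's 2 probe sets. Against replicate 2 alone the medians of the beta, ATPase, other 19S and alpha groups were 0.23, 0.17, 0.30 and -0.04. Against replicate 3 alone they were 0.53, 0.41, 0.25 and 0.25, so for the alpha genes replicate 1 stood above replicate 3 only. The largest single difference was that of Psmd11, 0.96 with a standard error of 0.37 (limma, adjusted p = 0.362). After it came another Psmd11 probe set at 0.72, Psmd8 and Psmb3 at 0.63 and Psmc5 at 0.57, with adjusted p-values in limma from 0.642 to 0.776. The 5 smallest p-values in the other direction belonged to Psmf1 at -0.51, Psmg4 at -0.38, Psmg1 and Psme3 at -0.33 and Psme4 at -0.20, with adjusted p-values in limma from 0.818 to 0.975.

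**Figure D2:**
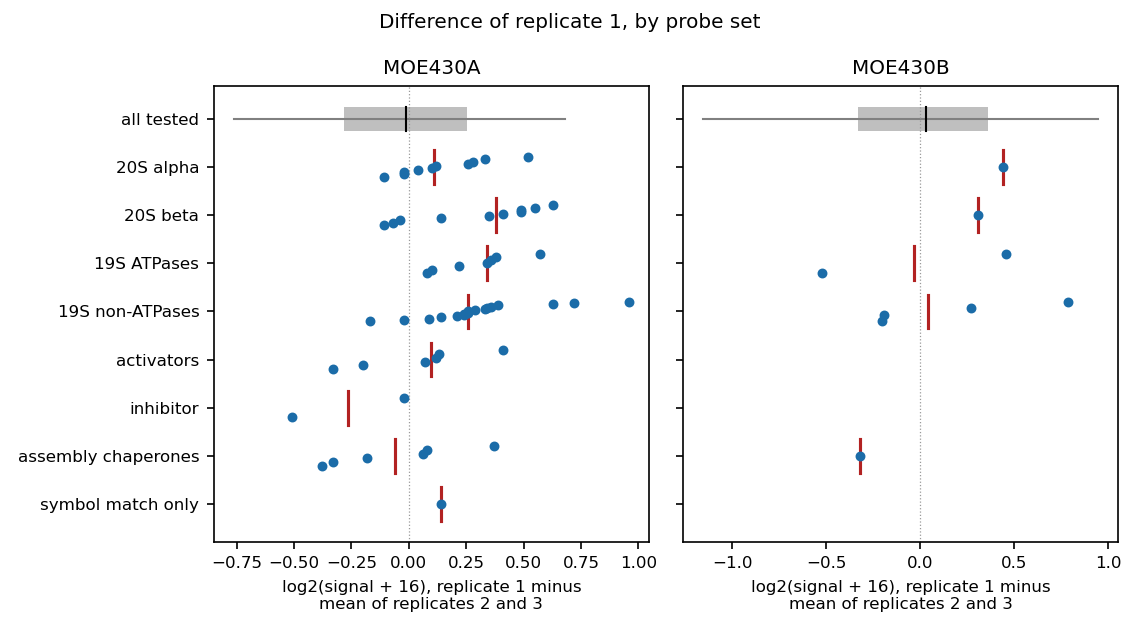
Log2 difference of replicate 1 from the mean of replicates 2 and 3 for each tested proteasome probe set, by role, on MOE430A (left) and MOE430B (right), with a red bar at each role's median. The grey bar and line on top span the 25th to 75th and the 5th to 95th percentile of all tested probe sets, with their median in black. Most points of the ATPase and other 19S groups on MOE430A lie right of 0 and inside the grey line, and the points of MOE430B lie on both sides.

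The order of the arrays showed the same lean. Replicate 1 was brightest for 34 of 59 probe sets (57.6%), against 33.2% of all tested, and lowest for 8 (13.6%), against 35.6%. Replicate 3 was lowest for 33 (55.9%), against 33.6%, and highest for 5 (8.47%), against 36.3%. Replicate 2 was between them, highest for 20 and lowest for 18, where 30.6% and 30.8% of all tested probe sets were. On MOE430A the scan day and the station were the same for replicates 1 and 2 and others for replicate 3. Between the arrays of the shared day, replicate 1 minus replicate 2 had a median of 0.14, against -0.01 for all, and across days replicate 1 minus replicate 3 had 0.24, against -0.02. Since replicate 3 was alone on its day, its day, its station and the replicate itself cannot be told apart within MOE430A. On MOE430B replicates 2 and 3 shared day and station. For the probe sets of Psmb5, Psma1 and Psmc5 on both types, replicate 2 minus replicate 3 was 0.48, 0.69 and -0.11 on MOE430A. On MOE430B it was 0.0, 0.14 and 0.28, and a part of day or station in this was not tested.

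**Figure D3:**
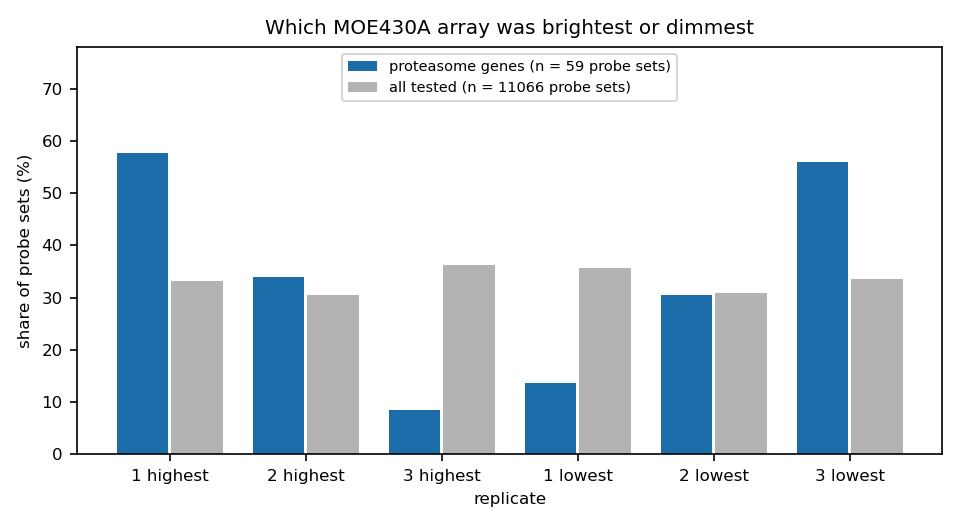
Share of probe sets (%) for which each of the 3 MOE430A arrays was the brightest or the dimmest, for 59 proteasome probe sets (blue) and all 11066 tested (grey). Replicate 1 was brightest for 57.6% of the proteasome probe sets against 33.2% of all, and replicate 3 dimmest for 55.9% against 33.6%.

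Other values moved with the replicates as well. The ratio of the 3' to the 5' end signal of Gapdh was 1.27, 1.16 and 0.846 on MOE430A, lowest in replicate 3. That of Actb was 1.05, 1.17 and 1.09 there. On MOE430B the ratio of Gapdh was 1.32, 1.24 and 0.802, again lowest in replicate 3, and that of Actb 1.02, 1.33 and 1.1. The summed signal of the fibroblast marker probe sets was lowest in replicate 1, at 971356 against 1079439 and 1122345, and that of the epithelial markers highest, at 5025 against 4462 and 3079. The sums were 8902, 9494 and 9063 for macrophage and blood markers, 2393, 2678 and 2828 for endothelium, and 4165, 5458 and 4392 for pluripotency. Such sums are set mostly by the brightest probe sets and include those under the floor. Of 22 tested fibroblast probe sets the difference of replicate 1 was below 0 for 17 and above 0 for 5. Only 2 epithelial probe sets were tested, both above 0. The part of the end ratios and the markers in the proteasome values was not tested.

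Probe sets of the same gene showed how far a difference held from one to the next. On MOE430A 21 genes had several probe sets, and in 14 of them some were above the floor and others not. Of the 14 genes with several in the test, 8 had differences of both signs. The widest range was that of Psmd11, from -0.02 to 0.96 over 4 probe sets, followed by Psme4 (-0.20 to 0.41 over 3), Psmb4 (-0.11 to 0.41), Psmf1 (-0.51 to -0.02) and Psme3 (-0.33 to 0.13). For Psmc2, Psma5 and Psmd4 the differences of the tested probe sets lay at most 0.04 apart. The order of the arrays could still differ, as the dimmer tested Psmd4 probe set had 2835, 1871 and 3089, highest in replicate 3. Probe sets named _s_at or _x_at can bind several transcripts; they made up 12 of the 82 and included the brightest ones of Psma6, Psmc2 and Psmd11. RefSeq lists pseudogenes named for Psma5 and Psmb5 (1 each) and for Psmb6 and Psmb7 (2 each), and whether these probe sets also bind them was not tested.

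MOE430B gave a check on the same RNA, since 100 probe sets are present on both array types, among them those of Psmb5, Psma1 and Psmc5. On MOE430B Psmb5 had signals of 44126, 35762 and 35666, Psma1 had 11671, 9016 and 8167, and Psmc5 had 17827, 14236 and 11711. The types were scaled separately, so these levels are not set against those of MOE430A. Replicate 1 was the brightest MOE430B array for all 3 genes, with differences of 0.31, 0.44 and 0.46, and 0.55, 0.33 and 0.57 on MOE430A. For Psma1 on MOE430A, though, replicate 2 was brightest and replicate 3 low. There replicate 1 minus replicate 2 was -0.02 and replicate 1 minus replicate 3 was 0.67. The 100 shared probe sets had a median difference of 0.21 on MOE430B and -0.02 on MOE430A, so on MOE430B the shared set as a whole leaned towards replicate 1 as well. Across the 100, the differences on the types had a Pearson's r of 0.55, a description over probe sets that share the same 3 RNA samples.

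**Figure D4:**
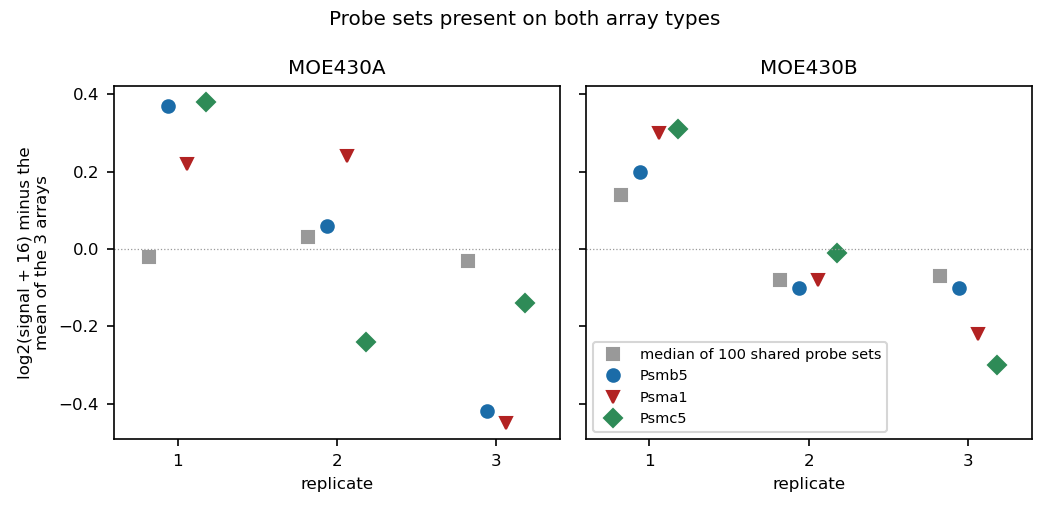
Log2(signal + 16) of Psmb5, Psma1 and Psmc5 in each replicate, minus the gene's mean over the 3 arrays of a type, on MOE430A (left) and MOE430B (right), with the median of the 100 shared probe sets as grey squares. Replicate 1 lies above 0 for each gene on both types, and on MOE430B the grey square does too, at 0.14. For Psma1 on MOE430A replicate 2 lies slightly higher, at 0.24 against 0.22.

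In all, 9 proteasome probe sets were tested on MOE430B, and limma called 0 of 9, as it called 0.0% of all 10594, with 0 of 9 at an unadjusted p below 0.05 where 7.24% of all were. Their median difference was 0.27, against 0.03 for all, and 5 of 9 were above 0 (55.6%, against 52.6% of all), so this share was near that of all probe sets. Replicate 1 was brightest for 5, replicate 2 for 2 and replicate 3 for 2, where the shares of all tested were 35.7%, 32.2% and 32.0%. Replicate 1 was lowest for 3, replicate 2 for 2 and replicate 3 for 4, where the shares were 33.9%, 31.6% and 34.5%. The median was 0.12 without replicate 2, 0.15 after quantile normalization, 0.07 when centred on the shared probe sets and 0.04 over plain probe sets alone. The MOE430B arrays were scanned on 1 day, with replicate 1 alone on its station, so that the effects of station and replicate cannot be separated there.

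Psmd11 had the largest difference on MOE430B, 0.79 with a standard error of 0.65 (limma, adjusted p = 0.857), from signals of 1548, 555 and 1425, of which replicate 2 was under the floor. The 5 remaining MOE430B probe sets above the floor measure Psmc2, Psmd2, Psmg2 and, with 2 of them, Psmd13. Psmd13 had 10062, 9582 and 7213 on 1 of them and 1029, 1293 and 1077 on the other, with differences of 0.27 and -0.19. Psmc2 had 1087, 1499 and 1632, low in replicate 1, while its probe sets on MOE430A were highest there. Psmd2 had 1366, 1189 and 2088, and Psmg2 had 2052, 2701 and 2442. The brightest of the bacterial tryptophan controls, which have no mouse target, reached 1989, 2348 and 2229 on these arrays, and only 5 of the 8 probe sets were above it on all 3, so those of Psmc2 and Psmd2 and the dimmer one of Psmd13 lay within the signal of a control with no mouse transcript to bind. On MOE430A 58 of 59 were above that control.

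The genes around the proteasome were mostly above the floor too, where 54.7% of all genes were. Of cofactors and subunits without a Psm symbol 8 of 9 measured genes were, with the small 19S subunit Sem1 at 10299, 10212 and 8107, the core assembly factor Pomp at 8174, 7949 and 7533 and the redox cofactor Txnl1 at 5177, 4725 and 3870.3. The exception was the deubiquitinase Uchl5, at 1208, 795 and 716. Their 15 tested MOE430A probe sets had a median difference of 0.09, against -0.01 for all tested. Of these 9 were above 0, where 48.9% of all tested were.

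Among 14 measured regulators of proteasome genes 11 were above the floor, with Vcp, the segregase that extracts ubiquitin-tagged proteins, at 29767, 26293 and 25112, Stat3 at 7617, 7180.3 and 8126, and Nfe2l1 at 6028, 6338 and 7870.1. Nfe2l1 was highest in replicate 3, the lowest array for 33 of 59 proteasome probe sets (55.9%, against 33.6% of all tested). A link between them was not tested. Nfe2l2, added here after its values were seen, had 5893, 3611 and 4252. Nfe2l3 (461, 484 and 386), Maff (428, 374 and 86.9) and Ddi1 on MOE430B (301, 295 and 258) were not above it. Of ubiquitin receptors and shuttles 11 of 12 were, with Nsfl1c at 5551, 5479 and 9923, Faf2 on MOE430B at 15775, 14052 and 16054 and Rad23b at 6671, 4586 and 4167; Zfand2b was not, at 512, 876 and 1205. The 16 and 17 tested MOE430A probe sets of these lists had median differences of 0.00 and 0.19, against -0.01 for all tested. Of them 8 and 12 were above 0, where 48.9% of all tested were. Of ubiquitin genes and activating enzymes only Uba6 had a probe set named here, at 9396, 8066 and 6219 on MOE430B.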

How the data were processed

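Total RNA of DR4 fibroblasts from 3 replicates was measured on 2 Affymetrix array types. The authors deposited MAS5 signals, linear intensities with 1 value per probe set and array, per the submitters' processing notes. The sources used here do not give the version or settings of MAS5. From the values, the mean without the top and bottom 2% of probe sets was about 1500.5 on each MOE430A array and 1500.2 on each MOE430B array, which is a common target. The types were kept apart.

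Gene symbols are those of the platform annotation in GEO (they can be old), updated by gene identifier against RefSeq: 20380 MOE430A and 14661 MOE430B probe sets have 1 symbol, 691 and 245 several, and 1555 and 7605 none. The 64 control probe sets of each type were left out. Psme2 has no probe set with a single symbol and is not described.

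Limma (3.58.1, R 4.3.3; lmFit, eBayes) was run on log2(signal + 16) over each whole table, keeping probe sets with a mean log2 signal over that of the floors, with Benjamini-Hochberg adjustment. Fold changes on this scale are understated for dim genes. The contrast of 1 array with 2 leaves 1 residual degree of freedom and takes the single array to vary as the pair does. That residual is the gap between replicates 2 and 3, which on MOE430A differed in scan day and station. To it eBayes added 25.6 prior degrees of freedom for MOE430A and 3.49 for MOE430B, from a variance pooled over all tested probe sets. The fit was tested on simulated arrays with independent errors and no effect of day or station, so that test does not cover such effects. The number of arrays limits the precision.

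Named genes are, per role, the 4 brightest and the 2 most variable, the extremes of the comparison, genes under the floor and genes on both types; a gene's value is its brightest MOE430A probe set. Here nearly all members are given. The members, lists and tests were chosen with earlier results of these data known. Alternatives were the pseudocount (1, 64), the filter, the floor (200, 75th percentile), an eBayes trend, quantile normalization, plain probe sets and leaving out replicates. Others were chosen after seeing the data: centring on the 100 shared probe sets and leaving out the 2 genes matched by symbol only.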

Additional observations from a re-analysis of the deposited data

How the results depend on the processing

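The calls in limma (0 of the proteasome probe sets on either array type) were the same with pseudocounts of 1 and 64, without a filter, with the 75th percentile as the filter, with an eBayes trend and after quantile normalization. Over all tested probe sets the calls did vary: MOE430A had 78, against 0 without a filter, 0 after quantile normalization and 164 with a trend, and MOE430B had 0, against 8 with the 75th percentile as the filter. With 1 array against 1 no residual degree of freedom remains, so leaving out a replicate gave values and no calls. The median difference of replicate 1 was positive in every alternative run. On MOE430A it lay between 0.14 and 0.26, with 0.14 without replicate 3 and 0.24 without replicate 2. On MOE430B it lay between 0.02 (no filter) and 0.31, with 0.12 to 0.20 without a replicate. In the main run the median over all tested probe sets was -0.01 on MOE430A and 0.03 on MOE430B. The lowest MOE430B values were thus near that of all probe sets, and their sign says nothing particular of the members. The added centring on the shared probe sets gave 0.23 and 0.07, and leaving out the genes matched by symbol only gave 0.22 and 0.27. Genes above the floor numbered 42 on MOE430A (33 to 44 over the alternatives, 42 without any replicate) and 7 on MOE430B, where a fixed signal of 200 as the floor gave 12 and leaving out a replicate 7 to 9. Shares of all genes under these alternatives are not given, so the counts do not show whether members stayed in excess. The median SD without a replicate was 0.15 to 0.20 on MOE430A and 0.18 to 0.28 on MOE430B. No paired analysis was possible because each array type has 1 array for each replicate number and the types hold different probe sets apart from the 100 shared. Dim signal limits the rest: 23 of 82 member probe sets on MOE430A and 12 of 20 on MOE430B were not above the floor on all 3 arrays.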
